A study of Mus musculus with 9 samples.

Results

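Tight and adherens junctions are the belts of protein that hold neighbouring cells together, and 7 of their genes are described here from a deposited ATAC-seq comparison of promoter windows in blood progenitors with and without extra Snai1. The genes are Ocln, F11r and Tjp3 of the tight junction and Ctnna1, Ctnnd1, Ctnnb1 and Jup of the adherens junction. Each had 1 window, so 7 of the 10271 windows of the comparison were theirs. Windows were given to genes by position: the start site implied by a window lay within 1 kb of the 5′ end of the gene on that strand, or, for Ctnnd1, inside the gene. The strand of Ctnna1 was not listed, so its window was matched by position alone.

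The cells were HPC7, a mouse hematopoietic progenitor line kept in medium with stem cell factor, transduced with a retroviral vector (MIG). In the Snai1 group (MIG-Snai1, 3 libraries) the vector drove FLAG-tagged wildtype Snai1, and in the empty vector group (MIG-EV, called EV below, 3 libraries) it carried no Snai1. A further 3 libraries held the mutant mut5Snai1 and were not analysed here. Each library was made from 100000 cells and read out by ATAC-seq, where Tn5 transposase inserts adapters into accessible DNA. All cells are 1 parental line carrying an integrated vector, and whether a group's libraries stem from different transductions is not stated in the labels, so the authors' p-values may reflect technical spread alone. The deposited table gives 1 log2 concentration per group (the log2 of the mean normalized read count in a window), with a p-value and an FDR, and no value per library. No SD can therefore be given, and sequencing depth is unknown here. As a guide to precision, each change was divided by the normal deviate belonging to its p-value, which gives what is called the implied SE. A lower window in such a population can mean, among other things, fewer cells with an open promoter or less cutting per cell. These cannot be told apart here.

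Of 12 progenitor markers, 11 had a window, among them Kit, Gata2 and Spi1, at log2 concentrations of 9.39 to 12.44 in Snai1 and 9.22 to 12.22 in EV. Of 12 epithelial markers, Cdh1, Epcam and the keratins included, 0 had one. For fibroblast markers the count was 2 of 10 (Fap and Pdgfrb), at 9.53 to 10.21 in Snai1 and 9.15 to 10.14 in EV. For endothelial markers it was 3 of 7, at 6.18 to 9.46 in Snai1 and 6.33 to 8.96 in EV. A gene without a window was not measured by this table.

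Occludin (Ocln) is a protein that spans the membrane in tight junctions, and F11r encodes JAM-A, an adhesion molecule of the immunoglobulin family found in tight junctions and also on leukocytes and platelets. Tjp3 encodes ZO-3, a scaffold on the inner face of the junction. In adherens junctions, cadherins bind p120-catenin (Ctnnd1) and either β-catenin (Ctnnb1) or plakoglobin (Jup), and α-catenin (Ctnna1) ties these to actin; β-catenin is also the transcriptional effector of Wnt signalling. Snai1 is a zinc finger repressor known from epithelial cells for binding E-box motifs in the promoters of junction genes such as Cdh1 and Ocln.

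The promoter sequences of 6 of the 7 genes were matched in RefSeq (GRCm38.p6, the same coordinates as mm10), each at exactly the start site of its window; Ctnna1 was not among them. Each runs from 250 bases before to 50 after the start, 5′ to 3′ on the strand of the gene. The first 3 below are the tight junction genes, which held the E-box letters CAGGTG or, on the other strand, CACCTG (capitals), and the fourth, Ctnnb1, is shown as a promoter without them and with a change near 0. They lie at chr13:100552449-100552748 on the minus strand (Ocln), chr1:171437311-171437610 on the plus strand (F11r), chr10:81291532-81291831 on the minus strand (Tjp3) and chr9:120933328-120933627 on the plus strand (Ctnnb1).
Ocln: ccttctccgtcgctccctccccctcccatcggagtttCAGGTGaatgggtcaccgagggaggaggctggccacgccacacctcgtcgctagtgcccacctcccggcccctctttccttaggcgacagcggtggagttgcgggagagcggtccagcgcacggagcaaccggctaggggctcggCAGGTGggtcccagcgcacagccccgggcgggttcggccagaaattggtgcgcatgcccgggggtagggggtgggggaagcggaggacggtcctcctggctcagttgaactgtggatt
F11r: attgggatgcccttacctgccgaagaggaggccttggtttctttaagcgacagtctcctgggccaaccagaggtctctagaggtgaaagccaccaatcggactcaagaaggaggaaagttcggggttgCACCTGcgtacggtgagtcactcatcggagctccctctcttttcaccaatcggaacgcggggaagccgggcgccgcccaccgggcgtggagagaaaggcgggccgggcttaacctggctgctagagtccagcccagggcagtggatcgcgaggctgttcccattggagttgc
Tjp3: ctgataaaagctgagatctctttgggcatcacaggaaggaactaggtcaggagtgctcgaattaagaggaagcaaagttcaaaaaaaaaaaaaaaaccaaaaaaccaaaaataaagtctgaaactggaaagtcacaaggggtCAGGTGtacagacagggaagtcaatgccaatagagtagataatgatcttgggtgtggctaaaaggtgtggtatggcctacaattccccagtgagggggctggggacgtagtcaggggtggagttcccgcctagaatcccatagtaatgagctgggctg
Ctnnb1: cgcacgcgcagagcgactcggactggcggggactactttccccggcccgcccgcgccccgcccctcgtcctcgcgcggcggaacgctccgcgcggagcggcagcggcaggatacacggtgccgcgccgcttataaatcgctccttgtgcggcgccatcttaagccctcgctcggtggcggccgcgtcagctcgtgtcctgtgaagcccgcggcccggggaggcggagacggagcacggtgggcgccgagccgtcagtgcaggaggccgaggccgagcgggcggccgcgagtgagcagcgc

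Ocln held 2 of these hexamers, starting 213 and 68 bases before the start site, both reading CAGGTG on the strand of the gene. F11r held 1, CACCTG, starting 122 bases before the start, and Tjp3 held 1, CAGGTG, starting 108 bases before it. The promoters of Ctnnd1, Ctnnb1 and Jup held 0. Of all 32817 promoters of this length in the reference, 20.2% held at least 1 of the hexamers and 2.88% held 2 or more. Of the 6641 whose start was the start of a window, 15.9% held at least 1 and 1.76% held 2 or more. These are matches of letters within 300 bases, shorter than the windows, and no binding was measured.

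In the authors' deposited table, accessibility fell at 2 of the 7 junction windows in Snai1, those of Ocln and F11r, and 5 did not pass FDR 0.05. Ocln fell by 4.81 on the log2 scale and F11r by 0.51. The other changes, Snai1 minus EV, lay between -0.24 (Tjp3) and 0.12 (Ctnna1). At FDR 0.01, which 19.0% of all windows passed, both were still called. The 2 calls make up 28.6% of the windows of these genes, near the 29.9% of all windows that passed; both were lower, as were 10.3% of all windows, against 19.6% that were higher. The median change of the 7 was -0.05, against 0.08 over all windows. The genes were picked with earlier results for these data known, and their number supports no statement about junction genes as a class.

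**Figure D1:**
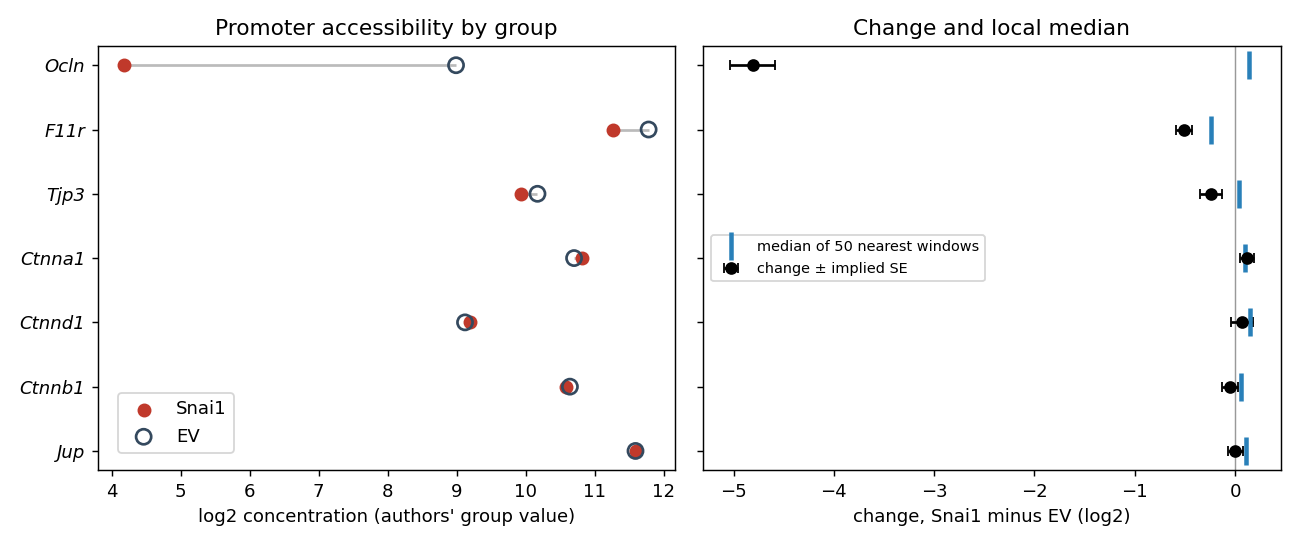
Log2 concentration of each junction window in Snai1 (filled) and EV (open), left, and the change (Snai1 minus EV, log2) with the implied SE as the error bar, right; blue ticks give the median change of the 50 nearest windows on the chromosome, 25 on each side. Ocln stands at 4.18 in Snai1 against 8.99 in EV, while the other 6 genes changed by at most 0.51.

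The Ocln window (chromosome 13, 100552398 to 100553498, mm10, minus strand) has as its start site a transcript start 220 bp inside the annotated 5′ end of the gene, which the window also covers. In the authors' deposited table its log2 concentration was 4.18 in Snai1 and 8.99 in EV, about 18.1 against 508 normalized reads, or 28.0-fold lower in Snai1. The change was -4.81 with an implied SE of 0.23 (95% interval -5.26 to -4.36; authors' FDR 2.19e-95). The level in EV was low but not at the floor: 12.5% of the 5020 windows of the same width lay below it in EV. In Snai1 0.139% of them lay below the Ocln value. By size of change it ranked 7 from the lowest of the 10271 windows, and 3 among the 1034 windows in the lowest decile of mean accessibility. That decile was also the one where changes spread most, from -1.49 at the 5th percentile to 1.01 at the 95th, and where the median implied SE was widest, at 0.175. The mean is taken over both groups, so a large fall itself lowers it and can widen the spread in that decile. The EV value of 8.99 alone lies in the range of the next decile, 8.82 to 9.8.

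No other window within 2 Mb of Ocln came near its fall in size. The nearest on one side, 59.9 kb away at Gtf2h2, which encodes a subunit of the transcription factor TFIIH, fell by 0.60 (FDR 3.08e-10, authors' deposited table). The next on that side, 235.9 kb away at Naip6, had a change of -0.40 and did not pass (FDR 0.113). The nearest on the other side, 98.6 kb away at the checkpoint gene Rad17, had a change of 0.01 (FDR 0.96). Over the 5 windows on each side (10 in all), changes ran from -0.60 to 0.36 with a median of 0.10. By the authors' FDR 3 rose and 1 fell, where 19.6% of all windows rose and 10.3% fell. Within 2 Mb there were 17 other windows, with a median change of 0.11 and a lowest of -0.60. The 3 windows closest to Ocln in both group values were those of the zinc finger genes Zfp2 (4.10 in Snai1, 8.96 in EV) and Zfp820 (4.47 and 9.24) and of Pag1 (3.55 and 8.81), an adaptor that restrains Src kinases. This likeness rests on 1 value in each of the 2 groups.

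The F11r window (chromosome 1, 171436561 to 171438561, plus strand) is centred on the annotated 5′ end of the gene. It was far more open than that of Ocln within its width class: 59.9% of the 5251 windows of 2001 bp lay below it in Snai1 and 83.4% in EV. Its log2 concentration was 11.27 in Snai1 and 11.78 in EV in the authors' deposited table, about 2469 against 3517 normalized reads, or 1.42-fold lower in Snai1. The change of -0.51 had an implied SE of 0.08 (95% interval -0.67 to -0.35; authors' FDR 7.17e-09). It ranked 410 from the lowest of all windows, and 15 of the 1026 in its accessibility decile.

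Unlike Ocln, F11r lay among windows that were mostly lower as well. The nearest window on each side was that of Tstd1, 18.5 kb away, with a change of -0.54 (FDR 0.0211), and that of Alyref2, 65.9 kb away, with -0.15 (FDR 0.148), in the authors' deposited table. Among the 5 windows on each side (10 in all), 4 fell, 0 rose, and the changes ran from -0.57 to 0.05. Of the 48 other windows within 2 Mb, 43 lay below 0, with a median of -0.23. By the authors' FDR 29 of them fell and 2 rose, where 10.3% of all windows fell and 19.6% rose. Measured from the median of its 50 nearest windows, 25 on each side (-0.245), the F11r change was -0.265 and still passed when tested again with the implied SE (FDR 0.0113), where 13.5% of all windows passed and 8.43% were lower. The part of this local shift in the F11r change was not tested further. The windows closest to F11r in both group values were those of 4933430I17Rik, A630089N07Rik and Lrrc42, with changes of -0.56, -0.53 and -0.55.

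**Figure D2:**
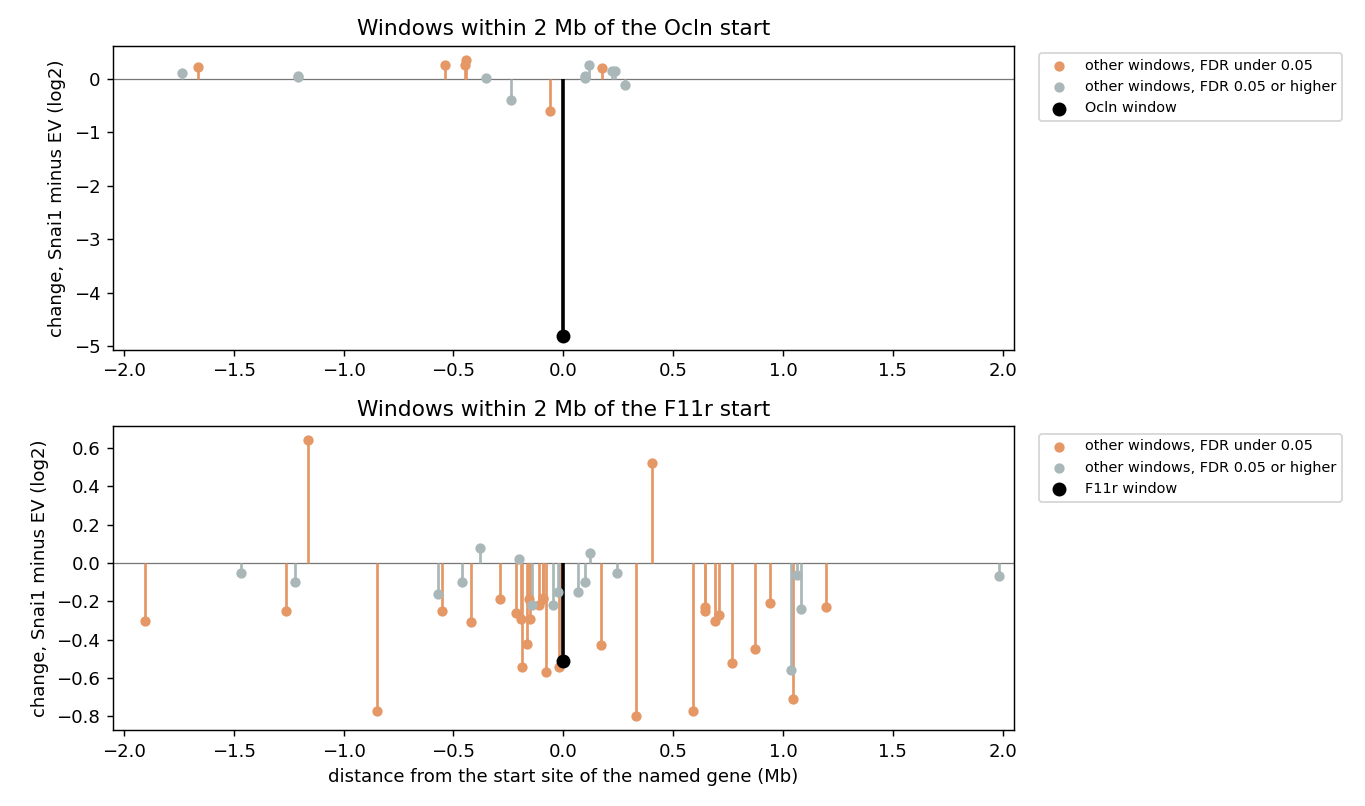
Change (Snai1 minus EV, log2) of every window within 2 Mb of the Ocln start (top) and the F11r start (bottom) by distance in Mb; black marks the named gene and orange the other windows with an authors' FDR under 0.05. The Ocln bar reaches -4.81 while its 17 neighbours stay between -0.60 and 0.36, whereas 43 of the 48 neighbours of F11r lie below 0. The vertical scales differ.

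The scaffold gene Tjp3 (chromosome 10, 81291481 to 81292581, minus strand, at the annotated 5′ end) had a log2 concentration of 9.93 in Snai1 and 10.17 in EV in the authors' deposited table. The change was -0.24 (implied SE 0.11, 95% interval -0.46 to -0.02, p = 0.0289 in the authors' comparison) and missed the threshold after adjustment (FDR 0.0818). Measured from the median change of all windows (0.08) it was -0.32 and passed (FDR 0.021, where 21.0% of all windows passed, 7.21% higher and 13.8% lower). Measured from its 50 nearest windows it was -0.28 and did not (FDR 0.0705). The Tjp3 window shares 619 bp with that of Pip5k1c, a lipid kinase gene read from the other strand, whose own change was -0.14 (12.45 in Snai1, 12.59 in EV, FDR 0.245). Reads in the shared part cannot be given to either gene. The window on the other side, inside Apba3 and 23.4 kb away, had a change of 0.00.

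Of the 4 catenin windows, 0 passed the authors' FDR. Ctnnb1 (chromosome 9, 120932578 to 120934578, plus strand), whose window has its start site 178 bp inside the annotated 5′ end, had 10.59 in Snai1 and 10.64 in EV, a change of -0.05 (95% interval -0.21 to 0.11, FDR 0.737). Jup (chromosome 11, 100397690 to 100398790, minus strand, 49 bp from the 5′ end), which encodes the close relative of β-catenin, had 11.59 in both Snai1 and EV (interval -0.15 to 0.15, FDR 0.989). It was the most open of the 7 within its width class, above 85.1% of windows in Snai1 and 86.2% in EV.

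Ctnna1 (chromosome 18, 35117912 to 35119912, 10 bp from the 5′ end), the link to actin, had 10.82 in Snai1 and 10.70 in EV, a change of 0.12 (interval -0.02 to 0.26, FDR 0.19). The window of Ctnnd1 (chromosome 2, 84650640 to 84651740, minus strand) lies at a second RefSeq start, 8237 bp inside the gene, and its values speak for that start alone. It had 9.19 in Snai1 and 9.12 in EV, a change of 0.07 (interval -0.15 to 0.29, FDR 0.636). These intervals use the implied SE, which for Ctnnb1, Ctnnd1 and Jup is the median of windows of like accessibility, since their own changes are too small to work one back.

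The windows beside the catenin genes had medians near or above that of all windows. The median change of the 5 windows on each side was 0.195 for Ctnnb1, 0.19 for Ctnnd1, 0.085 for Jup and 0.07 for Ctnna1, against 0.08 over all windows. By the authors' FDR, 5 of the 10 windows beside Ctnnd1 rose and 0 fell, where 19.6% of all windows rose and 10.3% fell. These 10 windows reach as far as 4011.5 kb on one side and 76.5 kb on the other. Selenoh, a selenoprotein gene 20.0 kb away, rose by 0.21 (FDR 0.0253). Tfpi, which encodes an inhibitor of blood clotting, lay 174.0 kb away and rose by 0.47 (FDR 0.00841). Ctnnb1 had Gm19385 (0.36, FDR 0.342) and a window inside Ulk4 (0.31, FDR 0.00136) on its sides. The windows beside Jup, at Eif1 (-0.02) and Nt5c3b (0.09), and those beside Ctnna1, at Hspa9 (-0.11) and Sil1 (-0.07), did not pass.

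**Figure D3:**
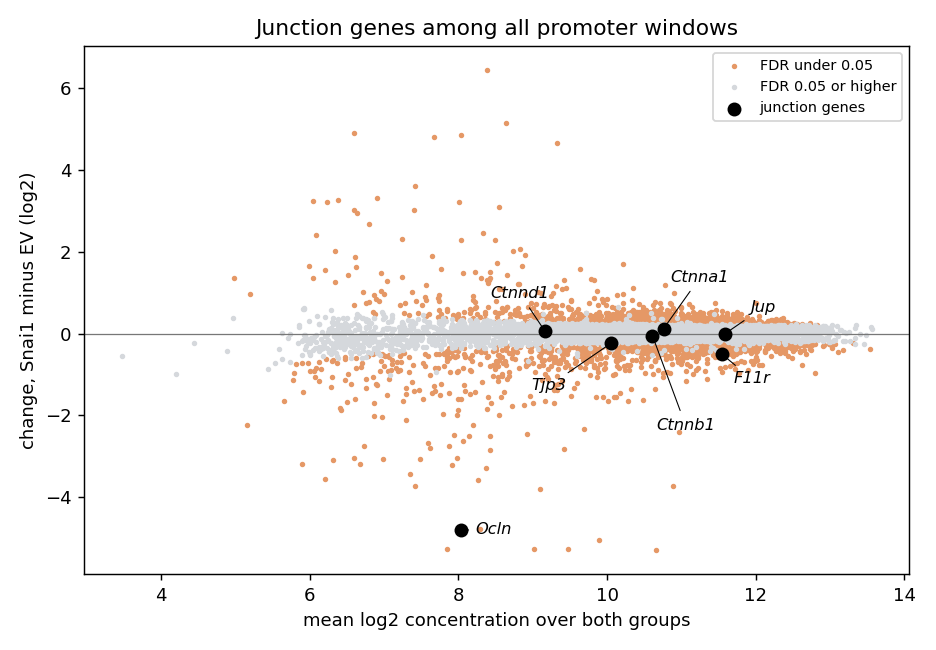
Change (Snai1 minus EV, log2) against mean log2 concentration over both groups for all 10271 windows, with the 7 junction genes in black and windows with an authors' FDR under 0.05 in orange. Ocln, at -4.81, is 7th from the lowest, F11r lies at the lower edge of the cloud, and the other 5 lie within it.

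The hexamers and the changes can be set side by side for the 6 genes with a sequence. The 3 promoters with CAGGTG or CACCTG belong to the windows with the lowest changes (Ocln -4.81, F11r -0.51, Tjp3 -0.24), and the 3 without to windows between -0.05 and 0.07. Across the 6641 promoters at a window start the same split was small. Of the 1058 with a hexamer, 12.6% were called lower in the authors' deposited table, with a median change of 0.06. Of the 5583 without one, 10.2% were called lower, with a median change of 0.09. With 2 or more hexamers, as in Ocln, 15.4% of 117 were called lower and the median change was 0.05. Base composition differed among the 6 as well: GC made up 68.0% of the Ocln promoter, 60.3% of that of F11r and 45.3% of that of Tjp3, against 75.0% for Ctnnb1, 60.7% for Jup and 42.7% for Ctnnd1. The part of the hexamers in any change was not tested.

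Beyond these 7, 150 genes of junctions, polarity and β-catenin handling were looked for and 43 had a window, 1 each. By the authors' FDR, 4 rose, 4 fell and 35 did not pass, so that 18.6% were called against 29.9% of all windows, and their median change was 0.04 against 0.08. Over all windows 19.6% rose and 10.3% fell by that FDR, shares that stand beside the counts of each list below. Measured from the 50 nearest windows, 3 of the 43 were higher (against 5.08% of all windows) and 7 lower (against 8.43%).

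Among tight junction genes other than Ocln, F11r and Tjp3, a window was found for 9 of 52. By the authors' FDR 0 rose and 0 fell. The 2 with the smallest p were Pard6a (0.16, FDR 0.0635) and Pard6b (-0.24, FDR 0.0711), adaptors of the polarity complex at tight junctions. The only claudin with a window was Cldn12 (change 0.18, FDR 0.17). Esam, an endothelial and platelet relative of JAM-A, had a weakly open window (6.39 in Snai1, 6.43 in EV, FDR 0.91). Prkci, the kinase partner of the Pard6 adaptors, had a change of 0.08 (FDR 0.424).

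Among adherens junction genes other than the catenins above, a window was found for 14 of 31, of which 1 rose, 1 fell and 12 missed the threshold. Lima1, which encodes the actin-bundling protein EPLIN that binds α-catenin, fell by 1.84: its log2 concentration was 7.19 in Snai1 and 9.03 in EV (chromosome 15, 99875356 to 99876456; implied SE 0.145, authors' FDR 1.24e-34). Measured from its 50 nearest windows the change was -1.875. The Lima1 window lies 21 bp from the annotated 5′ end, but the nearest Lima1 start among the RefSeq promoters lies 55307 bp away. Its values speak for this position alone. Nectin3, an immunoglobulin-like adhesion molecule, rose by 0.38 at a window 1568 bp inside the gene (9.41 in Snai1, 9.03 in EV; FDR 0.032), although the median of its 50 nearest windows on chromosome 16 was -0.71; measured from that median its change was 1.09 (FDR 2.15e-12). The actin linkers Vcl (0.01), Actn1 (0.04) and Actn4 (-0.12) and the nectin relative Pvr (0.12) did not pass.

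**Figure D4:**
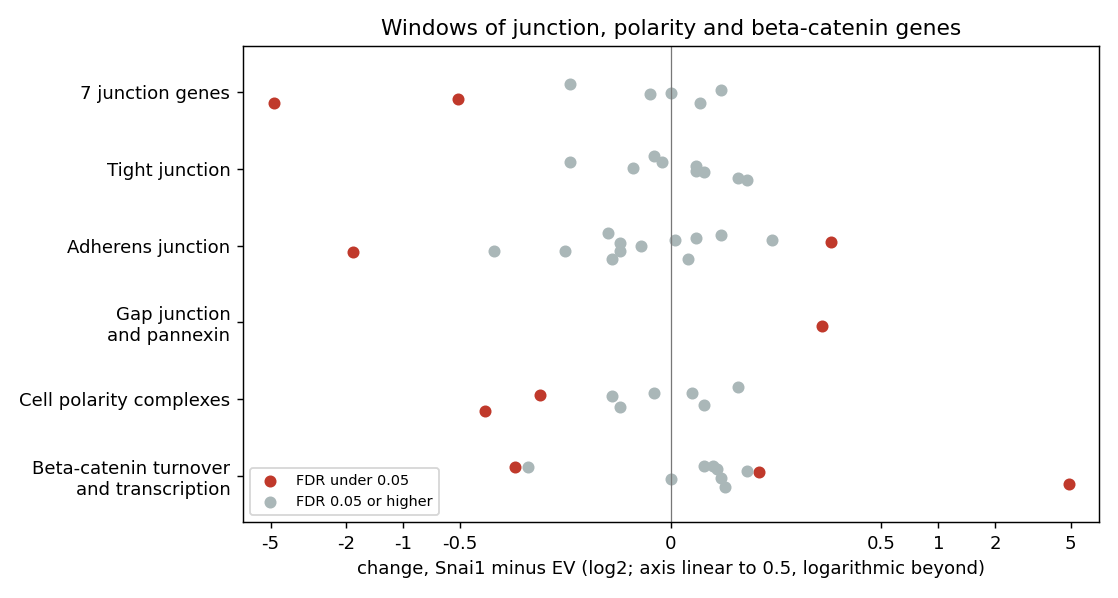
Change (Snai1 minus EV, log2) of each window of the 7 junction genes and of the other genes of 5 related lists, with windows of authors' FDR under 0.05 in red; the axis is linear to 0.5 and logarithmic beyond, and points are spread vertically for legibility. Most points lie within 0.5 of 0, with Ocln and Lima1 far to the left and the Axin2 window far to the right.

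Of 13 desmosome genes, 0 had a window, and of 22 connexin and pannexin genes 1 did: Panx1, a channel gene, rose by 0.36 (10.33 in Snai1, 9.97 in EV; authors' FDR 0.000113). Among 15 polarity genes, 8 had a window, and by the authors' FDR 0 rose, 2 fell and 6 missed the threshold. Dlg1, a scaffold of the Scribble group, fell by 0.44 (11.13 in Snai1, 11.57 in EV; FDR 2.71e-07). The median of its 50 nearest windows on chromosome 16 was -0.43, and measured from it the change was -0.01 (FDR 0.959). Llgl2, of the same group, fell by 0.31 (9.78 in Snai1, 10.09 in EV; FDR 0.0144), with nearest windows at a median of 0.04. Scrib itself had a change of -0.04.

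For β-catenin turnover and transcription, a window was found for 11 of 17 genes, of which 2 rose, 1 fell and 8 missed the authors' threshold. Axin2, an inhibitor that Wnt signalling induces, stood at 8.98 in Snai1 and 4.11 in EV at a window 2521 bp inside the gene (change 4.87, FDR 1.34e-92). Its values speak for that position alone, and the EV value is low, near the 4.18 of Ocln in Snai1. Of the kinase genes that mark β-catenin for destruction, Gsk3a rose by 0.21 (FDR 0.0104) and Gsk3b fell by 0.37 (FDR 0.00649). Csnk1a1, at a window 1346 bp inside the gene, had a change of 0.18 and did not pass (FDR 0.0561). Measured from their 50 nearest windows, none of these passed (Gsk3a 0.17, FDR 0.0779, Gsk3b 0.035, FDR 0.9, and Csnk1a1 0.10, FDR 0.446). The scaffold genes Apc (0.12) and Axin1 (0.10) did not pass.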

How the data were processed

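The tools named in the submitters' processing notes are fastp, Bowtie2, Picard and DiffBind, with the mm10 build; no source used here gives their versions, scaling or settings. The authors' deposited table holds, per the file headers, log2 concentrations over both groups and for each group, their log2 fold (EV minus Snai1), and the authors' p-value and FDR. Of its 10274 rows, 3 exact repeats were dropped. Changes are Snai1 minus EV of the deposited group values. With 0 columns of values per library, no count model and no test across libraries was run.

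Windows of 2001 bp were read as plus strand (start site 1000 bp in) and those of 1101 bp as minus strand (100 bp in). Genes came from RefSeq GRCm38.p6: 8957 windows lay within 1000 bp of a 5′ end, 1283 inside a gene, and 31 had none. Strand came from the RefSeq promoter table where it lists the gene. A gene without a listed strand was matched by position to windows of either strand, where no gene of known strand was matched. The implied SE is the size of a change over the normal deviate for its p, or the median of its accessibility bin (20 bins) where the change was under 0.1. Re-tests subtracted a median, divided by this SE and adjusted over all windows by Benjamini-Hochberg. A run on changes simulated with the same SE and normal spread checked the calculation only. It shares these assumptions and so cannot test them. Named list genes were up to 4 called per list with the smallest FDR; the other list genes given values were chosen after these were seen. A listed gene is not reported here. Genes and lists were chosen with earlier results of these data known. Python 3.11.15, pandas 2.3.3 and SciPy 1.17.1 were used.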

Additional observations from a re-analysis of the deposited data

How the results depend on the processing

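The table gives 1 value per group, so leaving out a library was not possible and precision by depth cannot be stated. No paired analysis was possible because no column carries a replicate number. The count of 2 junction windows called, both lower, was also found at FDR 0.01 and against the 50 nearest windows. It was the same after adjusting again without repeat rows, which moved any FDR by at most 0.00134. Taking 1 window per gene could not change it, since each gene had 1. Against the median of all windows the count was 3, all lower, with Tjp3 (-0.32) added, where 13.8% of all windows were lower. Within 100 bp of the 5′ end it was 1 of 4 windows, since the start site of the Ocln window lies 220 bp from it. For the other 43 genes, 8 were called (4 higher, 4 lower), or 18.6% against 29.9% of all windows. At FDR 0.01, which 19.0% of all windows passed, 5 were called, 2 of them higher. Against the median of all windows 2 were higher and 7 lower, where 7.21% and 13.8% of all windows were. Against the 50 nearest 3 were higher and 7 lower, where 5.08% and 8.43% of all windows were. The cause was not tested. Within 100 bp of the 5′ end 29 windows were left, 5 called and 2 higher. The share of all windows called within that distance was not worked out. Neither this count nor the 1 of 4 above can therefore be set against it. Ocln and F11r were lower and called at every centre tried, Ocln between -4.95 and -4.81 and F11r between -0.59 and -0.265. The implied SE is approximate, so calls near the threshold under either centre are uncertain.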
